A study of Mus musculus with 11 samples.

Results

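Hoxa3, Hoxa5, Hoxa6, Hoxa7, Hoxa9 and Hoxa10 of the Hoxa cluster were followed together with Meis1, Pbx2 and Pbx3 in mouse bone marrow progenitors that carried mutant CSF3R with or without mutant CEBPA. The 9 genes were chosen by name and found by their Ensembl identifiers among the 51912 genes of the count table. Of these 9 genes, 7 had enough counts for a test across all genes, and Hoxa3 and Hoxa6 did not. The study asked whether the order in which the mutant genes are acquired changes the cells, and RNA-seq was performed on 11 samples in 3 groups. Lineage-negative C57BL/6 bone marrow was transduced with a retroviral vector that is always active and with one that needs Cre recombination, and per the study's methods the marrow for this system came from Rosa26 ERT2-Cre mice. CSF3R-only cells (4 samples) carried always-active CSF3R T618I, a receptor mutation that signals without its ligand, and an empty inducible vector. CSF3R-first cells (3 samples) carried always-active CSF3R T618I and inducible CEBPA V314VW, an insertion in the C-terminal part of the transcription factor. CEBPA-first cells (4 samples) carried always-active CEBPA V314VW and inducible CSF3R T618I. CEBPA-first cells thus differed from CSF3R-only cells in mutant CEBPA and also in the vector and timing of CSF3R, which cannot be told apart. All groups, the CSF3R-only control included, therefore carried mutant CSF3R and both kinds of vector, were sorted as lineage-negative cells positive for GFP and RFP, and were then kept for 48 h with 4-hydroxytamoxifen, which activates the Cre. The replicates are lettered A to D, and no label says that they came from separate animals, so that p-values measure the spread between these samples, which may be technical.

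Hoxa proteins are homeodomain transcription factors that are active in blood stem and progenitor cells and are switched off as the cells mature. On DNA they pair with homeodomain proteins of the TALE class, which Meis1 and the Pbx genes encode, and the partners sharpen which sites are bound. Hoxa9 with Meis1 is a well-known driver pair of myeloid leukaemia, and Pbx3 is a known further partner of this pair.

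The 4 CSF3R-only libraries held 49499527 to 65937530 counts, the 3 CSF3R-first libraries 47905747 to 61069929 and the 4 CEBPA-first libraries 49782847 to 72268346, so that 3 counts, used here as the floor of detection, correspond to between 0.0383 and 0.0648 CPM (counts of a gene per 1000000 counts of the library). CPM values are scaled by edgeR's TMM factors throughout. CSF3R-first replicate A stood apart from the other samples of its group: the chi-square of its gene counts per degree of freedom was 99.1 against replicate B and 74.5 against replicate C, whereas all other replicate pairs lay between 9.11 and 38.9. Where a member's call, or its size by over 1.5 times, rests on this replicate, the value without it is given below. CEBPA-first cells had 167 ± 6.12 CPM (SD, n = 4) of Cebpa, CSF3R-first cells 131 ± 10.4 (n = 3) and the control 87.2 ± 6.98 (n = 4), whereas Csf3r was at 154 ± 16.1, 516 ± 118 and 846 ± 94.9 CPM, respectively. The study assayed the introduced genes by PCR as human CEBPA and CSF3R, also in bone marrow with these vectors. Whether reads of the vector copies were assigned to these mouse genes is not given in the sources used here.

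The 6 Hoxa members lie in one cluster on the minus strand of mouse chromosome 6 (GRCm38), from Hoxa3 (chr6:52169062-52213336) through Hoxa9 (chr6:52223100-52231089) to Hoxa10 (chr6:52231197-52240854). Meis1 lies on chromosome 11 (chr11:18879817-19018985, minus strand), Pbx2 on chromosome 17 (chr17:34591266-34597400, plus strand) and Pbx3 on chromosome 2 (chr2:34171457-34373142, minus strand), and the annotation lists all 9 as protein-coding. Exons of Hoxa5, Hoxa6, Hoxa10 and Pbx3 overlap no other annotated exon, while 98.5% of the exon bases of Hoxa9, 93.8% of Pbx2, 81.7% of Meis1, 79.6% of Hoxa7 and 72.9% of Hoxa3 are free of such overlap. The partner of Hoxa7 is the antisense RNA Hoxaas3, and reads in the bases they share could be told apart only if strand was used in counting, which the sources used here do not give. No member transcript shared a stretch of at least 100 bases at 97% identity or more with a gene other than its overlapping neighbours in the same locus.

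The annotated start regions of Hoxa9, Meis1 and Hoxa10 are shown because Hoxa9 rose and Meis1 fell in each comparison given below, and because a Hoxa10 start region is the only one of the members that holds the letters of a C/EBP element. RefSeq (GRCm38.p6) gives windows of 300 bases, from 250 before to 50 after a start, for 8 of the 9 members and 9 windows in all, since Hoxa10 has 2; Pbx3 was not matched. Each sequence reads 5′ to 3′ on the gene's own strand, which is the minus strand for these genes, and capitals mark matches on either strand to TTGCNNAA (C/EBP), TGACAG (MEIS), TGATTNAT (HOX-PBX) or CCAAT.
Hoxa9 (chr6:52227321-52227620): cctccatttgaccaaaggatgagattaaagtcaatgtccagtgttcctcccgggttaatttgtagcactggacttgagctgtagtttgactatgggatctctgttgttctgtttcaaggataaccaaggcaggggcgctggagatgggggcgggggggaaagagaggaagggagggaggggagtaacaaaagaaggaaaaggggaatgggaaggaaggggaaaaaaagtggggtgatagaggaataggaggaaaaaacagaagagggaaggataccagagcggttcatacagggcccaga
Meis1 (chr11:19018920-19019219): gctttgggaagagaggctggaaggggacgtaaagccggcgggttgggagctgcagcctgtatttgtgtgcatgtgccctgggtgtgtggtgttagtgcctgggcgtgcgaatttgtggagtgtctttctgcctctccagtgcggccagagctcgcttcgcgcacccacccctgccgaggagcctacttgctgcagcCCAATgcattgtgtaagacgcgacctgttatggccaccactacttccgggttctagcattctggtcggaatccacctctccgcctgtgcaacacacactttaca
Hoxa10 (chr6:52234890-52235189): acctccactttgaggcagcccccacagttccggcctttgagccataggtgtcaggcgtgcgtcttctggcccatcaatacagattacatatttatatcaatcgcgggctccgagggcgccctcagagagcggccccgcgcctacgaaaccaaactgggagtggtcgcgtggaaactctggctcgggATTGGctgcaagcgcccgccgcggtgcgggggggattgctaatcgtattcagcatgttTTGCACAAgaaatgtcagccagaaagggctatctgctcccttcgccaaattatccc
The Hoxa9 window holds none of the 4 motifs. The Meis1 window holds a CCAAT match only, and the Hoxa10 window holds a CCAAT match and the C/EBP letters. Among all 9 windows, the C/EBP letters occur in 1, the MEIS letters in 1 (Hoxa3), the HOX-PBX letters in 0 and CCAAT in 4 (Hoxa5, Hoxa6, Hoxa10 and Meis1). In all 32851 RefSeq windows the shares are 10.8%, 19.2%, 3.22% and 37.4%. A match describes letters in this window and is not a measured binding site. The windows also differ in base composition, with 49.7% G and C for Hoxa9, 58.3% for Meis1 and 76.0% for Pbx2, against a median of 52.7% over all windows.

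Levels of different genes were compared as CPM per kb of annotated exon. In CSF3R-only cells Pbx2 was the most abundant member at 12.6 CPM per kb, followed by Meis1 at 1.79, Hoxa9 at 1.22, Pbx3 at 0.916, Hoxa7 at 0.668 and Hoxa10 at 0.498. Hoxa5 (0.0955) and Hoxa6 (0.0921) were far lower, and Hoxa3 was lowest at 0.0081. The samples of Hoxa9 and Pbx3, of Pbx3 and Hoxa7, of Hoxa7 and Hoxa10, and of Hoxa5 and Hoxa6 overlapped, so that these neighbours in the order did not separate. In CEBPA-first cells the order was Pbx2 (6.43), Hoxa9 (2.36), Hoxa7 (0.884), Pbx3 (0.698), Meis1 (0.608), Hoxa10 (0.391), Hoxa5 (0.257), Hoxa6 (0.138) and Hoxa3 (0.0222), with no overlap between any neighbours. This order depends on the exon length used, which the spread between samples does not cover. In CPM, without division by length, Meis1 (6.4) and Pbx3 (4.26) lay above Hoxa7 (2.54) in CEBPA-first cells. By level per kb, Meis1 stood at rank 2 in CSF3R-only cells, at rank 3 with 1.20 CPM per kb behind Hoxa9 (1.71, overlapping) in CSF3R-first cells and at rank 5 in CEBPA-first cells. Within the cluster, Hoxa9 was the highest gene in each of the 11 samples, its neighbours Hoxa7 and Hoxa10 came next, and Hoxa11 had 3 counts or fewer in each sample and Hoxa13 had 0.

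**Figure D1:**
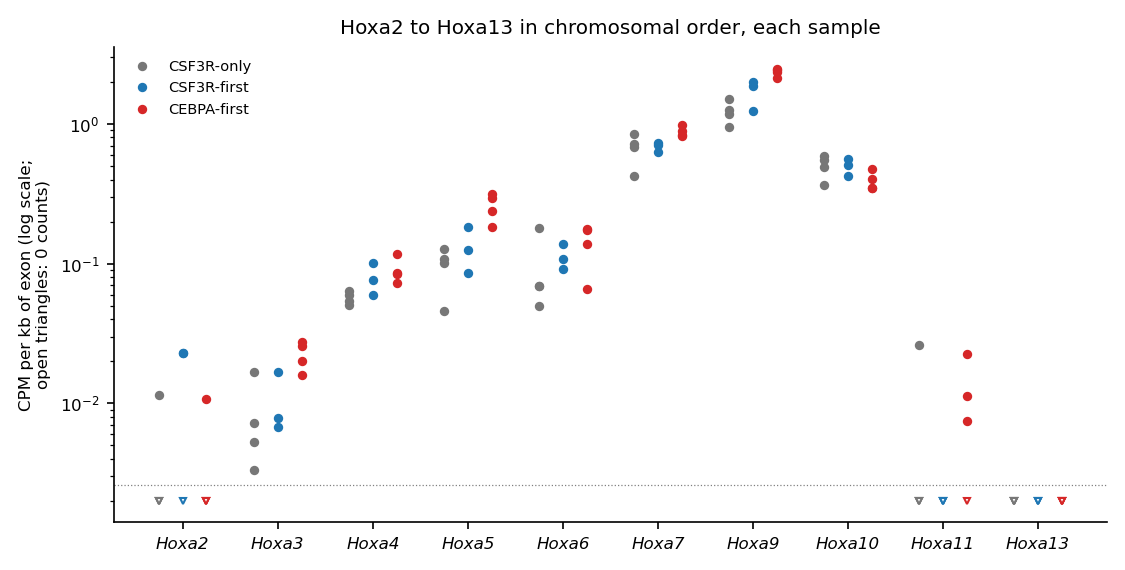
Level of each Hoxa gene in each sample, in chromosomal order from Hoxa2 to Hoxa13, as CPM per kb of exon on a log axis, with grey for CSF3R-only (n = 4), blue for CSF3R-first (n = 3) and red for CEBPA-first (n = 4), and open triangles for samples with 0 counts. Hoxa9 is the highest Hoxa gene in every sample, and for Hoxa9 all red points lie above all grey points.

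Hoxa9, the member of the cluster most often tied to leukaemia, rose in both groups with CEBPA V314VW and most in CEBPA-first cells. It was measured at 5.31, 7.03, 8.43 and 6.56 CPM in CSF3R-only replicates A to D, at 6.92, 10.5 and 11.2 CPM in CSF3R-first replicates A to C, and at 11.9, 13.2, 13.6 and 13.9 CPM in CEBPA-first replicates A to D. CEBPA-first samples lay above all others, whereas CSF3R-first replicate A lay inside the CSF3R-only range. Hoxa9 was 1.93-fold higher in CEBPA-first than in CSF3R-only cells (log2 fold change 0.95, SE 0.16, adjusted p = 0.00011 by edgeR's quasi-likelihood test), and this call stood in all 18 alternative settings. In CSF3R-first against CSF3R-only cells it was 1.40-fold higher (log2 fold change 0.48, SE 0.17, adjusted p = 0.034), and in CEBPA-first against CSF3R-first cells 1.38-fold higher (log2 fold change 0.47, SE 0.17, adjusted p = 0.034). Both smaller differences depended on single samples. The first lost its call without CSF3R-only replicate A (adjusted p = 0.089), B (0.057) or D (0.076) or CSF3R-first replicate B (0.13) or C (0.14), and was 0.66 on the log2 scale without CSF3R-first replicate A (adjusted p = 0.0017). The second was lost without CSF3R-first replicate A (log2 fold change 0.29, adjusted p = 0.12) or CEBPA-first replicate B (0.066), C (0.064) or D (0.070).

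Hoxa5, a low-count neighbour in the middle of the cluster, showed the largest fold rise among the tested members. CEBPA-first replicates had 20, 26, 29 and 46 counts, CSF3R-first replicates 17, 8 and 15, and CSF3R-only replicates 4, 12, 10 and 12. As CPM these were 0.482 ± 0.112 (SD, n = 4), 0.248 ± 0.0925 (n = 3) and 0.180 ± 0.0657 (n = 4), and every CEBPA-first sample lay above every control sample. The CEBPA-first rise over CSF3R-only was 2.66-fold (log2 fold change 1.41, SE 0.34, adjusted p = 0.0022). Against CSF3R-first it was 1.95-fold (log2 fold change 0.96, SE 0.36, adjusted p = 0.040), with overlapping samples and a call that was lost in 9 of 17 alternatives, whose adjusted p values reached up to 0.14. CSF3R-first and CSF3R-only cells did not separate for Hoxa5 (log2 fold change 0.45, adjusted p = 0.38, and 0.15 without CSF3R-first replicate A).

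Hoxa7 and Hoxa10, which flank Hoxa9, passed edgeR's test in none of the 3 comparisons. CEBPA-first cells had 2.54 ± 0.218 CPM (SD, n = 4) of Hoxa7, CSF3R-first cells 1.98 ± 0.148 (n = 3) and control cells 1.92 ± 0.518 (n = 4), with a CEBPA-first against CSF3R-only log2 difference of 0.40 (95% interval 0.00 to 0.80, adjusted p = 0.065). CSF3R-only replicate B, at 2.44 CPM, lay inside the CEBPA-first range of 2.36 to 2.85 CPM, and that difference passed the threshold in 4 of 18 alternatives: DESeq2 (adjusted p = 0.049), total counts in place of TMM (0.020), no filter on low counts (0.047) and the fit without this replicate (0.023). For Hoxa10 the respective levels were 1.28 ± 0.196, 1.63 ± 0.237 and 1.63 ± 0.321 CPM. Its CEBPA-first against CSF3R-only log2 difference was -0.34 (95% interval -0.75 to 0.06, adjusted p = 0.11), the opposite sign to Hoxa5, Hoxa7 and Hoxa9, and the samples overlapped. It passed only without CSF3R-only replicate A, the lowest of that group (adjusted p = 0.031).

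Hoxa3 and Hoxa6 were at or near the floor and were not tested in the fit across genes. Hoxa3 had 10 counts in all CSF3R-only, 10 in all CSF3R-first and 34 in all CEBPA-first samples, and the ratio of CEBPA-first to CSF3R-only CPM was 2.87 with a 95% exact interval of 1.39 to 6.52 that covers counting error only. Over samples, an exact permutation test of its CPM gave p = 0.0571 (two-sided) between these groups. For Hoxa6, CEBPA-first cells had 0.121 ± 0.0453 CPM (SD, n = 4), CSF3R-first cells 0.0990 ± 0.0210 (n = 3) and control cells 0.0805 ± 0.0525 (n = 4), with overlapping samples, and no difference was detectable at this depth (exact permutation test, two-sided p = 0.40 for CEBPA-first against CSF3R-only).

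**Figure D2:**
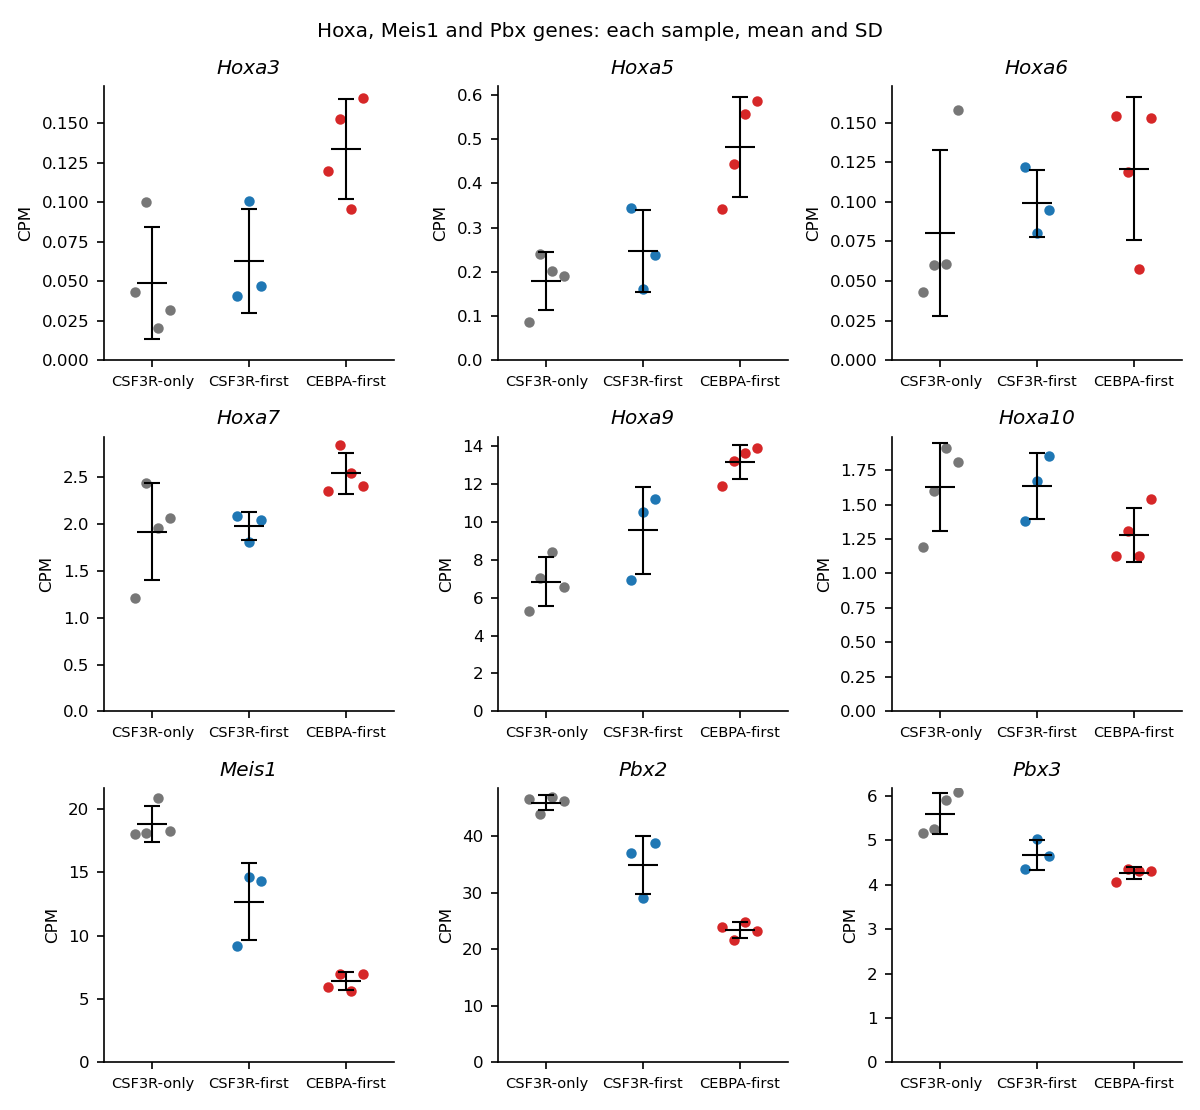
CPM of each of the 9 genes in every sample, one panel a gene with its own axis from 0, in CSF3R-only (grey, n = 4), CSF3R-first (blue, n = 3) and CEBPA-first (red, n = 4) cells, with the mean as a bar and the SD as an error bar. Hoxa9 goes up from grey to red while Meis1 and Pbx2 go down, and the CEBPA-first points of these 3 genes lie apart from those of both other groups.

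Meis1, the TALE cofactor that joins Hoxa9 in progenitors, fell in both groups with CEBPA V314VW. It was measured at 18.0, 18.1, 20.9 and 18.3 CPM in CSF3R-only replicates A to D, at 9.17, 14.6 and 14.3 CPM in CSF3R-first replicates A to C, and at 5.96, 7.01, 5.64 and 7.01 CPM in CEBPA-first replicates A to D. The 3 groups did not overlap at all. Meis1 was 2.93-fold lower in CEBPA-first cells than in the control (log2 fold change -1.55, SE 0.14, adjusted p = 5.2e-07), 1.48-fold lower in CSF3R-first cells than in the control (-0.57, SE 0.15, adjusted p = 0.0080) and 1.98-fold lower in CEBPA-first than in CSF3R-first cells (-0.99, SE 0.15, adjusted p = 0.00021). All 3 calls held in each of the 18 alternatives, and without CSF3R-first replicate A, the lowest of its group, the CSF3R-first decrease became -0.38 (adjusted p = 0.0099).

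Pbx2, a broadly expressed Pbx partner, also fell in each comparison, by less than Meis1. It was at 46.5, 43.9, 46.9 and 46.1 CPM in CSF3R-only, 37.0, 29.0 and 38.7 CPM in CSF3R-first, and 24.0, 21.6, 24.8 and 23.3 CPM in CEBPA-first replicates, again with no overlap between groups. Within CSF3R-first cells its lowest sample was replicate B, whereas for Meis1 it was replicate A. The fall was 1.96-fold in CEBPA-first against CSF3R-only cells (log2 fold change -0.97, SE 0.08, adjusted p = 4.5e-07), 1.31-fold in CSF3R-first against CSF3R-only cells (-0.39, SE 0.09, adjusted p = 0.0045) and 1.49-fold in CEBPA-first against CSF3R-first cells (-0.58, SE 0.09, adjusted p = 0.00031). These calls also held in all 18 alternatives. Pbx3, a Pbx partner known for its place beside Hoxa9 and Meis1 in leukaemia, moved less than Meis1 and Pbx2 in each comparison: it was at 5.16, 5.25, 5.91 and 6.08 CPM in CSF3R-only, 4.36, 5.03 and 4.65 CPM in CSF3R-first, and 4.07, 4.36, 4.30 and 4.32 CPM in CEBPA-first replicates. CSF3R-only samples lay above all others, and Pbx3 fell 1.31-fold in CEBPA-first against CSF3R-only cells (log2 fold change -0.39, SE 0.10, adjusted p = 0.0026). The CSF3R-first difference from CSF3R-only was -0.26 (95% interval -0.49 to -0.03, adjusted p = 0.063). Among the alternatives it passed only with at least 10 counts in every sample (-0.27, adjusted p = 0.047 by edgeR). The difference of CEBPA-first from CSF3R-first was -0.13 (95% interval -0.36 to 0.09, adjusted p = 0.32).

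**Figure D3:**
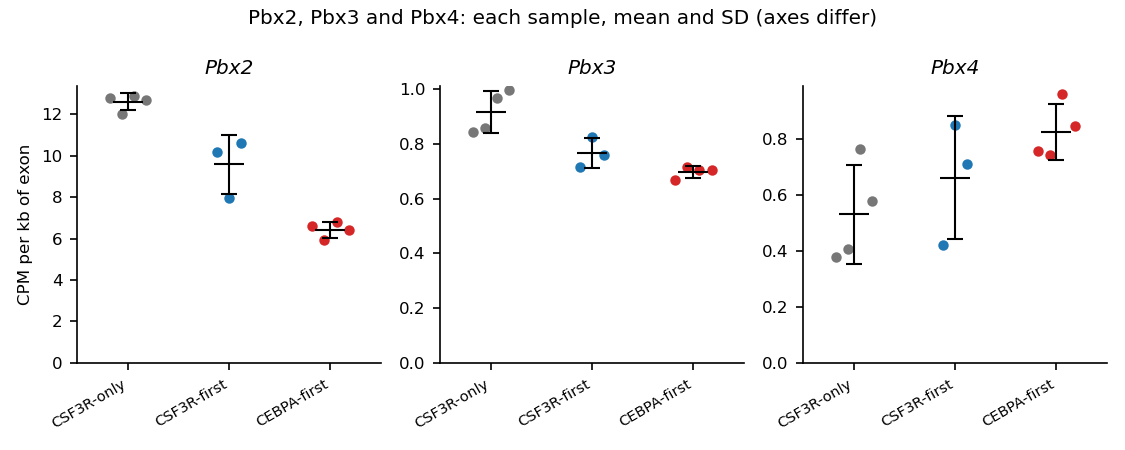
Levels of Pbx2, Pbx3 and Pbx4 in each sample as CPM per kb of exon, with the mean and SD of each group and a separate axis from 0 for each gene, in CSF3R-only (grey, n = 4), CSF3R-first (blue, n = 3) and CEBPA-first (red, n = 4) cells. Pbx2 steps down from group to group without overlap, Pbx3 shows a shallower step, and the Pbx4 samples overlap.

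Counted over the members, 5 of the 7 tested genes differed between CEBPA-first and CSF3R-only cells at an adjusted p below 0.05: Hoxa5 and Hoxa9 were higher and Meis1, Pbx2 and Pbx3 lower. Over all 15703 genes tested, 72.0% passed in this comparison, 35.4% higher and 36.6% lower, so that the members' share was near that of all genes. Past 2-fold as well were 2 members, Hoxa5 (higher) and Meis1 (lower), where 27.0% of all genes passed, 8.07% higher and 19.0% lower. In CSF3R-first against CSF3R-only cells 3 of the 7 members passed (Hoxa9 higher, Meis1 and Pbx2 lower) against 42.7% of all genes, 21.6% higher and 21.1% lower. In CEBPA-first against CSF3R-first cells 4 passed (Hoxa5 and Hoxa9 higher, Meis1 and Pbx2 lower) against 48.3%, 24.0% higher and 24.3% lower. In each of these last comparisons 0 members passed at 2-fold by edgeR or by DESeq2, also at an unadjusted p below 0.05, where edgeR called 6.65% of all genes in the first of them (2.13% higher and 4.53% lower) and 12.8% in the other (2.57% higher and 10.3% lower). Samples of the compared groups did not overlap for 5 of the 7 members (2 higher and 3 lower) in CEBPA-first against CSF3R-only cells, where this held for 68.7% of all genes, 34.2% higher and 34.5% lower. They did not overlap for 3 members in CSF3R-first against CSF3R-only cells (Meis1, Pbx2 and Pbx3, all lower), against 42.1% of all genes, 20.7% higher and 21.4% lower. In CEBPA-first against CSF3R-first cells they did not overlap for 4 members (Hoxa7 and Hoxa9 higher, Meis1 and Pbx2 lower), against 52.2%, 27.4% higher and 24.8% lower. Without CSF3R-first replicate A, 3 members passed in CSF3R-first against CSF3R-only cells, and 3 in CEBPA-first against CSF3R-first cells, of which 2 were past 2-fold (Hoxa5 at 1.26 and Meis1 at -1.17 on the log2 scale). The median log2 fold change of the 7 members was -0.34, 0.00 and -0.13 in the 3 comparisons, beside medians over all tested genes of 0.00, -0.02 and 0.00. These comparisons share samples: each group enters 2 of them.

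**Figure D4:**
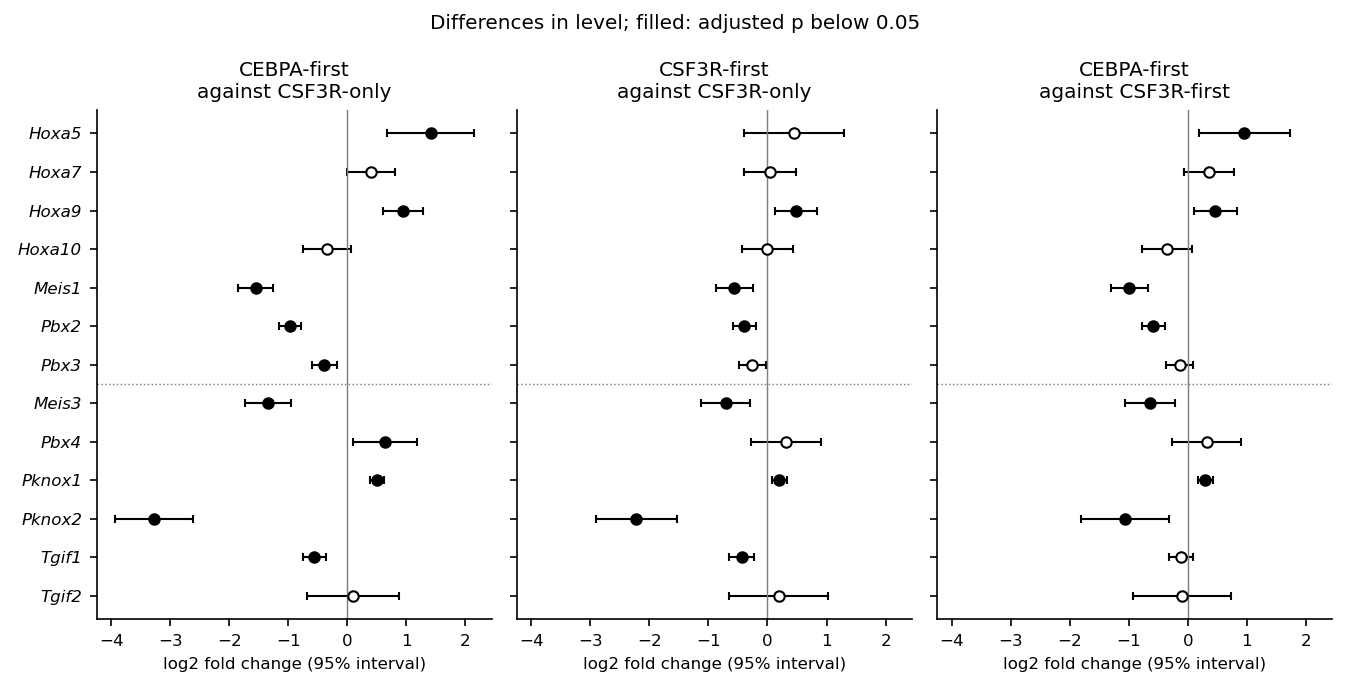
Log2 fold change with 95% interval of the 7 tested members (above the dotted line) and the 6 other tested TALE genes (below it) in each comparison, with filled points for an adjusted p below 0.05 in edgeR's quasi-likelihood test. Hoxa9 lies right of 0 and Meis1, Pbx2, Meis3 and Pknox2 left of 0 with filled points in all 3 panels, although in the third panel the Hoxa9, Meis3 and Pknox2 calls were lost without CSF3R-first replicate A.

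Because Hoxa9 and Meis1 act as a pair, their levels were set against each other within each sample, as a description with no test. The ratio of Hoxa9 to Meis1 in CPM per kb was 0.558, 0.733, 0.761 and 0.677 in CSF3R-only replicates A to D, 1.42, 1.35 and 1.48 in CSF3R-first replicates A to C, and 3.79, 3.56, 4.56 and 3.74 in CEBPA-first replicates A to D. Per kb, Meis1 was therefore the higher of the pair in every CSF3R-only sample, and Hoxa9 in every sample of the other two groups. In counts, without division by exon length, the 4 CSF3R-only samples had ratios between 0.296 and 0.403, the 3 CSF3R-first samples between 0.717 and 0.782 and the 4 CEBPA-first samples between 1.89 and 2.41, so that which gene was higher in CSF3R-first cells depended on the length. The order of the 3 groups did not. CSF3R-first replicate A was the lowest of its group for both genes, and its ratio lay between those of replicates B and C. The share of Hoxa9 in the summed level per kb of the 6 Hoxa members averaged 58.2 ± 1.38% (SD, n = 4) for CEBPA-first, 53.7 ± 7.03% (n = 3) for CSF3R-first and 47.6 ± 4.47% (n = 4) for CSF3R-only cells.

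**Figure D5:**
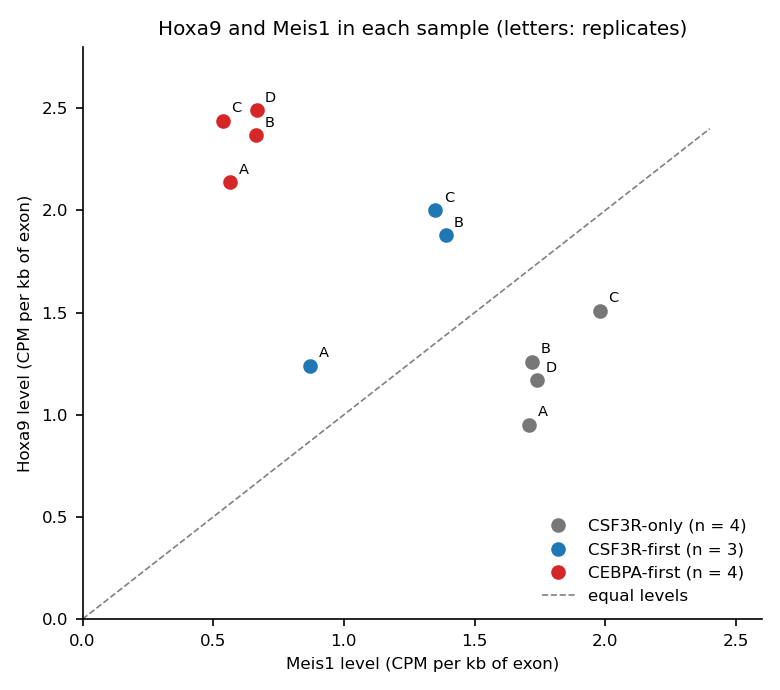
Hoxa9 against Meis1 in each of the 11 samples as CPM per kb of exon, coloured by group and lettered by replicate, with a dashed line at equal levels. All 4 CSF3R-only samples lie below the line, and the CSF3R-first and CEBPA-first samples lie above it, with ratios of 1.35 to 1.48 and 3.56 to 4.56.

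Of the 7 other TALE genes listed, 6 were tested, and Meis2, with at most 3 counts in a sample, was not. In CEBPA-first against CSF3R-only cells 3 of these 6 were lower and 2 higher, with a median log2 fold change of -0.23, where 36.6% of all genes were lower and 35.4% higher. Pknox2 fell to 0.295 ± 0.104 CPM (SD, n = 4) with CEBPA first and to 0.630 ± 0.198 (n = 3) with CSF3R first, from 2.92 ± 0.893 (n = 4) in the control. Its log2 fold changes were -3.28 (adjusted p = 7.9e-07) in CEBPA-first and -2.22 (adjusted p = 0.00026) in CSF3R-first cells, both against CSF3R-only. Meis3, the relative of Meis1, fell by 1.34 and 0.71 on the log2 scale in the same comparisons (adjusted p = 2.1e-05 and 0.011), the second of which was lost without CSF3R-first replicate B (adjusted p = 0.054). In CEBPA-first against CSF3R-first cells the log2 fold change was -1.06 for Pknox2 (adjusted p = 0.023) and -0.64 for Meis3 (adjusted p = 0.019). Both calls were lost without CSF3R-first replicate A (Pknox2 -0.78, adjusted p = 0.12, and Meis3 -0.60, adjusted p = 0.058). The Pknox2 call was also lost without CEBPA-first replicate B (adjusted p = 0.051) or C (0.052), and the Meis3 call without CSF3R-first replicate C (0.058) or CEBPA-first replicate B (0.054) and with no filter on low counts (0.070). Tgif1, a TALE repressor, fell by 0.56 and 0.44 (adjusted p = 9.0e-05 and 0.0034). In the opposite direction, Pknox1, which pairs with Pbx proteins as Meis proteins do, rose from 43.0 ± 1.42 CPM (n = 4) to 49.3 ± 1.83 (n = 3) and 60.8 ± 2.83 (n = 4), by 0.50 on the log2 scale in CEBPA-first against CSF3R-only cells (SE 0.05, adjusted p = 2.7e-06). In CSF3R-first cells the Pknox1 rise was 0.20 (adjusted p = 0.015), and was lost without CSF3R-first replicate B (adjusted p = 0.071). Pbx4 was 0.63 higher on the log2 scale in CEBPA-first against CSF3R-only cells (SE 0.25, adjusted p = 0.037) with overlapping samples, and its call was lost without CSF3R-only replicate A (adjusted p = 0.10), B (0.10) or D (0.054) or CEBPA-first replicate C (0.091) or D (0.065).

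Other transcripts of the Hoxa locus were scarce. Hoxa4 had 4 to 6 counts in each CSF3R-only, 6 to 8 in each CSF3R-first and 7 to 11 in each CEBPA-first sample and was not tested. Of 12 genes listed for the rest of the locus, Hoxa4 among them, 2 were tested: Hoxaas3 and Hotairm1. Hotairm1, a noncoding RNA known from myeloid maturation, was lower in CEBPA-first cells than in the control, at 0.195 against 0.370 CPM (log2 fold change -0.93, SE 0.33, adjusted p = 0.020), a call that was lost in 4 of 17 alternatives, among them the fits without CSF3R-only replicate D (adjusted p = 0.070) and CEBPA-first replicate A (0.061) or B (0.055). In the other comparisons 0 of the 2 passed by edgeR or DESeq2, also at an unadjusted p below 0.05. The genes that flank the cluster on chromosome 6 did not follow one direction. In CEBPA-first against CSF3R-only cells Cbx3, a heterochromatin protein gene, rose (log2 fold change 0.88, adjusted p = 1.4e-06), as did Hibadh, a valine breakdown enzyme gene (0.50, adjusted p = 3.5e-06), whereas Snx10 (-0.97, adjusted p = 8.0e-07) and Skap2 (-0.77, adjusted p = 6.7e-06), an adaptor gene, fell. Tax1bp1 did not separate (-0.04, adjusted p = 0.57), and Evx1 was not tested.

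The other Hox clusters gave few counts. In the Hoxb cluster 2 of 10 genes were tested. For Hoxb4, known for expanding blood stem cells, CEBPA-first cells had 3.08 ± 0.225 CPM (SD, n = 4), CSF3R-first cells 3.86 ± 0.117 (n = 3) and control cells 3.27 ± 0.338 (n = 4). Its level was 1.25-fold lower with CEBPA first than with CSF3R first (log2 fold change -0.32, SE 0.12, adjusted p = 0.042), but this call was lost in 11 of 18 alternatives, with adjusted p values of up to 0.19. Of 9 Hoxc and 9 Hoxd genes, 0 had enough counts to be tested.

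Genes of MLL complexes and their partners, and the Cdx genes, are known to keep Hoxa genes on. Cdx1, Cdx2 and Cdx4 were not tested, with 1 count in all for Cdx1 and 0 for the others. Of the 16 tested of 19, 13 rose and 1 fell in CEBPA-first against CSF3R-only cells (median log2 fold change 0.41), where 35.4% of all genes rose and 36.6% fell. In CSF3R-first against CSF3R-only cells 8 of the 16 rose and 0 fell (21.6% and 21.1% of all genes). In CEBPA-first against CSF3R-first cells 10 rose and 0 fell (24.0% and 24.3% of all genes). Npm1, a nucleolar chaperone whose mutation goes with high HOX levels in leukaemia, went from 403 to 967 CPM (log2 fold change 1.26, adjusted p = 1.0e-06) in the first comparison. Mllt1, a reader protein gene of the elongation machinery, went from 56.5 to 109 CPM (0.95, adjusted p = 3.8e-08). Kmt2a, which encodes MLL1 itself, was the member that fell, from 31.9 to 25.7 CPM (-0.31, adjusted p = 0.010), with overlapping samples and a call that was lost with total counts in place of TMM (-0.17, adjusted p = 0.16).

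Of the 8 core Polycomb genes, which encode the complexes that keep Hox genes silent, 5 rose and 2 fell in CEBPA-first against CSF3R-only cells (median 0.28), where 35.4% of all genes rose and 36.6% fell. Ezh2, the histone methyltransferase, rose from 51.2 to 95.7 CPM (log2 fold change 0.90, adjusted p = 1.5e-06), and its partner Suz12 from 136 CPM by 1.83-fold (0.87, adjusted p = 5.1e-07). Ezh1, the alternative methyltransferase, fell (-0.52, adjusted p = 3.3e-05), as did Jarid2 (-0.43, adjusted p = 0.00015), which recruits the complex.

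Among 9 factors that bind enhancers together with Hoxa9 and Meis1, 2 rose and 5 fell (median -0.28) in CEBPA-first against CSF3R-only cells, again beside 35.4% and 36.6% of all genes. Besides Cebpa (0.93, adjusted p = 1.2e-07), for which a share of vector reads is not known, Runx1 rose (0.24, adjusted p = 0.021), although its call was lost without CSF3R-only replicate A (adjusted p = 0.053) or B (0.060) or CEBPA-first replicate B (0.061) or D (0.059). Spi1, the myeloid master regulator PU.1, fell from 664 to 341 CPM (-0.96, adjusted p = 1.3e-06), and Kmt2c, an enhancer methyltransferase, fell as well (-0.51, adjusted p = 8.9e-05).

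Genes listed as targets of Hoxa9 and Meis1 in blood cells went both ways: 9 of 19 rose and 8 fell in CEBPA-first against CSF3R-only cells, with a median of 0.27, where 35.4% of all genes rose and 36.6% fell. Myb, a progenitor transcription factor, rose 3.07-fold, from 108 to 331 CPM (log2 fold change 1.62, adjusted p = 7.4e-08), and Myc, a growth regulator, 2.95-fold, from 158 to 465 CPM (1.56, adjusted p = 2.3e-07). Both also rose in CSF3R-first against CSF3R-only cells, by 0.79 and 0.84 on the log2 scale (adjusted p = 0.00038 and 0.00044). Ccl4, a chemokine, fell 6.21-fold, from 43.4 to 7.01 CPM (-2.63, adjusted p = 4.2e-08), and Igf1, a growth factor, fell 6.09-fold, from 5.94 to 0.993 CPM (-2.61, adjusted p = 3.8e-05).

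Cell type markers moved with these levels, and in such bulk samples fewer cells of a type and less RNA per cell cannot be told apart. The summed CPM of 7 megakaryocyte markers, Itga2b and Pf4 among them, was 111 to 156 in CEBPA-first samples, 334 to 522 in CSF3R-first samples and 874 to 1190 in the control. In each comparison 7 of 7 were lower, as Meis1 and Pbx2 were, beside 36.6%, 21.1% and 24.3% of all genes. For 10 neutrophil markers the respective sums were 6430 to 8560, 14500 to 25200 (the highest in CSF3R-first replicate A) and 26400 to 32400, and 10 of 10 were lower with CEBPA first than in the control (36.6% of all genes). All samples had been sorted as lineage-negative before the 48 h of culture. The 8 monocyte and macrophage markers summed to 3900 to 5720, 3920 to 6430 and 5370 to 5870 in the same order, and these ranges overlapped. F13a1 made up much of these sums, and without it the other 7 summed to 874 to 1220, 1540 to 2640 and 2740 to 3480, with no overlap. Of these 8, 6 were lower past 2-fold (19.0% of all genes) and 2 were higher with CEBPA first than in the control (median log2 fold change -1.72). Csf1r, the receptor of a macrophage growth factor, was at 223 ± 37.2 CPM (SD, n = 4) against 1130 ± 161 (n = 4). The 6 mast cell and basophil markers summed to 1220 to 1650, 1050 to 1300 and 1650 to 2540. Fcer1a was higher and Mcpt8 and Cpa3 were lower with CEBPA first than in the control. For 8 erythroid markers the sums were 38.4 to 54.9, 116 to 387 and 247 to 378. The 8 stem and progenitor markers went different ways. Their sum was 5950 to 6260, 4790 to 5490 and 3720 to 4050, higher with CEBPA first as Hoxa9 was, but this rested on the granule genes Mpo, Elane and Prtn3. Without these, the other 5 summed to 773 to 962, 1030 to 1240 and 1330 to 1560, lower with CEBPA first. Ptprc made up most of these smaller sums. Kit (34.8 against 27.6 CPM), Cd48 (141 against 88.1) and Spn (118 against 87.0) were instead higher with CEBPA first than in the control. Of the 8 genes, 6 were higher and 2 lower with CEBPA first than in the control, where 35.4% of all genes were higher and 36.6% lower. Ptprc, the CD45 gene, was at 1130 ± 125 CPM (SD, n = 4) in the control and 585 ± 83.5 (n = 4) with CEBPA first. Cd34, a surface marker of progenitors, was the other that was lower, at 88.8 ± 11.4 CPM (SD, n = 4) in the control, 44.1 ± 15.0 (n = 3) with CSF3R first and 17.9 ± 1.49 (n = 4) with CEBPA first. Lymphoid markers were low in all samples. Those of B cells summed to 5.81 to 6.81 CPM, 3.26 to 4.23 and 3.59 to 4.51, and those of T and NK cells to 4.31 to 5.58, 2.03 to 2.90 and 1.71 to 2.38, with Cd3e and Ncr1 at 0 in each sample. Cd79b was higher with CEBPA first than in the control (6.06 against 3.42 CPM), and Cd79a was lower (0.127 against 0.615). In the same comparison Lck (4.32 against 1.75) and Klrb1c (0.647 against 0.0778) were higher and Cd3d (0.0475 against 0.242) was lower. The 8 stromal and endothelial markers summed to 26.5 to 28.6, 11.2 to 15.5 and 11.6 to 12.4 CPM. Of these, Pdgfrb and Col1a2 were higher and Col1a1 lower with CEBPA first than in the control, and Col3a1 was at 0. Without Pdgfrb and Col1a2 the sums were 5.29 to 8.28, 4.12 to 5.25 and 5.76 to 6.65, and CEBPA-first samples overlapped the control. The genes left out of these sums and of those above were chosen after their values had been seen. The part of these cell types in the differences of the Hoxa, Meis and Pbx genes was not tested.

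Over the 11 samples, the genes most like Hoxa9 by Pearson correlation of log2 CPM, among the 5924 other genes whose log2 CPM averaged 5 or more, were Pabpc1 (r = 0.984), Fam117a (0.983) and Gtf2i (0.982). Pabpc1 encodes a poly(A)-binding protein, and it was at 639 ± 29.0 CPM (SD, n = 4) with CEBPA first, 553 ± 60.3 (n = 3) with CSF3R first and 448 ± 46.2 (n = 4) in the control. The genes most like Meis1 were Mef2c (0.987), Ptger3 (0.987) and Serpina3g (0.985). Mef2c, a transcription factor of early progenitors and megakaryocytes, was at 19.9 ± 0.733, 42.6 ± 5.96 and 70.0 ± 6.20 CPM, respectively. All these points share the 3 groups, so that any gene with stepwise group means scores high.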

How the data were processed

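RNA was sequenced from 11 samples of sorted lineage-negative mouse bone marrow, prepared with a low-input cDNA kit. The authors deposited raw counts per gene, 1 column per sample. Per the study's methods and the submitters' processing notes, reads were trimmed with Trimmomatic and aligned with STAR, with mm10 as the build. The counting tool, annotation and strand setting are not given in the sources used here.

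The table lists 51912 genes, of which 23409 were empty in all samples and 15703 passed edgeR's filterByExpr. The symbols of 51719 identifiers came from GENCODE M21 (GRCm38), and the 193 others, at most 0.00896% of the counts of any sample, stayed unnamed. Counts were TMM-normalized and fitted for all 3 groups at once with edgeR 4.0.16 (quasi-likelihood test, R 4.3.3), with Benjamini-Hochberg adjustment over all tested genes. A gene was called at an adjusted p below 0.05, also past 2-fold where stated. Standard errors (SE) were derived from the log2 fold change and its F statistic, and 95% intervals from the t distribution with the fit's degrees of freedom. For likeness, log2 CPM used a prior count of 2. On simulated counts for CEBPA-first against CSF3R-only, edgeR recovered 37 of 50 genes raised and 32 of 50 lowered 2-fold, and 49 of 50 raised and 45 of 50 lowered 4-fold, with 10 false calls among 15703 genes. Only these genes were changed in the simulation, whereas 72.0% of all genes passed in the real comparison. Its recovery and false calls therefore need not hold for the real data. Total counts of 47905747 to 72268346 per sample set the precision, and intervals on counts cover counting error only.

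Alternatives were DESeq2 1.42.0, its size factors in edgeR, total counts, other filters, the compared groups alone, a replicate block and leaving out each sample. Same-letter samples of different groups, as deviations from their group means, correlated between -0.107 and 0.362, mostly above 0. Different-letter samples correlated between -0.341 and 0.384. Same-letter samples were not treated as pairs outside the replicate block. Near-identical transcripts were searched with BLAST 2.17.0. Named were the 9 members, their closest relatives, the cluster's neighbours, up to 2 called genes per direction and list, and for Hoxa9 and Meis1 the 3 most correlated genes. Some genes of these families are not reported here. Hoxb6 was named after its values were seen. The members and all lists were chosen with earlier results of these data known.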

Additional observations from a re-analysis of the deposited data

Results flagged for a closer look

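In 24 groups of 4 samples of the 9 members and their closest relatives, the gap of the highest or lowest sample to its nearest neighbour was compared with the range of the group by Dixon's test, for which chance gives about 1.2 hits, or 1 in 20. Meis1 in CSF3R-only replicate C, at 20.9 CPM, lay above the other 3 samples of its group by 0.896 of the group's range. Hoxa6 in CSF3R-only replicate D, at 0.158 CPM, did so by 0.850 of the range, at a level close to the floor.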

How the results depend on the processing

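All 18 alternatives kept Meis1 and Pbx2 lower and past the threshold in every comparison, and Hoxa9 higher and Pbx3 lower in CEBPA-first against CSF3R-only cells. Hoxa5 stayed higher there in the 17 alternatives that tested it. Total counts in place of TMM moved the median of all genes by 0.13 in that comparison. Members past 2-fold there numbered 4 with no filter on low counts, where Hoxa3 entered the test (1.52) and Hoxa9 went from 0.95 to 1.02, and 2 to 3 when leaving out each replicate. In CEBPA-first against CSF3R-first cells, 1 member passed 2-fold with total counts, with at least 10 counts in every sample and with only the compared groups, and 0 to 2 when leaving out each replicate (2 without CSF3R-first replicate A). Members called there numbered 2 to 4 when leaving out each replicate, with 2 without CEBPA-first replicate B, C or D, 3 by DESeq2 and 4 in the fit as reported. In CSF3R-first against CSF3R-only cells they numbered 2 to 3 under leave-one-out. The Hoxa9 call in CSF3R-first cells was lost with only the compared groups (adjusted p = 0.075). The sign turned for Hoxa7 in CSF3R-first against CSF3R-only cells without CSF3R-only replicate A (-0.12, with leave-one-out values of up to 0.17), for Hoxa10 there with at least 10 counts (-0.01) and without CSF3R-only replicate A (-0.12) or B (-0.01) or CSF3R-first replicate B (-0.01) or C (-0.08, with values of up to 0.11), for Hoxb4 in CEBPA-first against CSF3R-only cells with total counts (0.05) and for Tgif1 in CEBPA-first against CSF3R-first cells without CSF3R-first replicate A (0.02, with values down to -0.21), none of them called. With the replicate block, the members called numbered 5, 3 and 3 in the 3 comparisons as ordered above (CEBPA-first and CSF3R-first against CSF3R-only, then CEBPA-first against CSF3R-first). The Hoxa5 call in the last was lost (log2 fold change 0.87, adjusted p = 0.086). Beyond the settings' own construction, the cause was not tested. Genes under 3 counts per sample cannot be separated from 0 at this depth.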

Other observations

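Hoxb6, a Hoxb gene below the filter on low counts and chosen after its values were seen, had 13, 8, 12 and 11 counts in CEBPA-first replicates A to D. CSF3R-only replicates had 0, 0, 0 and 1 count and CSF3R-first replicates 0, 1 and 0. The groups did not overlap, in CPM as in counts (a description, since this pattern led to the choice). From the summed counts of 44 and 1, the CEBPA-first CPM was 37.2 times that of CSF3R-only (95% exact interval 6.33 to 1500, counting error only) and 28.8 times that of CSF3R-first (4.91 to 1170). In edgeR's test without the filter, Hoxa3 had an adjusted p of 0.038 in CEBPA-first against CSF3R-only cells and 0.22 against CSF3R-first cells, and Hoxa6 had 0.41 and 0.75.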
